A study of Mus musculus with 21 samples.

Results

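The genes described here are the mouse proteasome genes, taken as every gene symbol that starts with Psma to Psmg followed by a digit. The rule reads symbols and no expression value, and it found 50 members among the 17516 gene symbols of the tables. Their levels are given as CPM, the UMIs of a gene per 1000000 UMIs of its library, where a UMI is a tag that counts 1 captured RNA molecule. A mean of at least 20 CPM over the 21 libraries was reached by 46 members. The members comprised 7 alpha ring subunits, 4 structural beta subunits, 3 constitutive catalytic subunits (Psmb5, Psmb6 and Psmb7), 3 catalytic subunits of the immunoproteasome (Psmb8, Psmb9 and Psmb10), 6 ATPases and 11 non-ATPase subunits of the 19S cap, and the 2 PA28 genes Psme1 and Psme2. The others were 4 assembly chaperones of the 20S core (Psmg1 to Psmg4), 3 of the 19S cap (Psmd5, Psmd9 and Psmd10), 2 further activators (Psme3 and Psme4), the inhibitor Psmf1, the PA28 beta copy Psme2b, and 2 tissue-specific core subunits (Psma8 and Psmb11). The last member, Psmc3ip, shares the letters of the rule but is a meiotic recombination factor and not a proteasome subunit.

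The cells were CD8 T cells from OT1 mice, whose transgenic T cell receptor recognises an ovalbumin peptide, so all groups carried that receptor. Naive cells were taken at day 0. Every other group was activated with beads coated with anti-CD3 and anti-CD28, and was either left without cytokine (days 3 and 5) or given IL-2, IL-2v or IL-15 at 5 or 50 IU/mL (days 3, 5 and 10). IL-2v is an IL-2 variant that the treatment labels call mutant IL-2bg. Each of the 21 conditions was 1 library of single cells, the animals and cultures behind it were not stated in the labels, and no difference below has a replicate check or a p-value. For 6 libraries the treatment label went against the title: those titled 50 IU/mL IL-2 named interleukin-3 and those titled 50 IU/mL IL-15 named interleukin-16, and the titles were followed. The extraction label described sorted tumour-infiltrating cells while the growth label described culture; the groups below are those of the titles.

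The 26S proteasome degrades ubiquitin-tagged proteins: the 19S cap unfolds them with its ring of ATPases, and the beta subunits inside the 20S barrel cut them into peptides. Under interferon signalling, and constitutively in many lymphoid cells, Psmb8 (beta 5i, or LMP7), Psmb9 (beta 1i, or LMP2) and Psmb10 (beta 2i, or MECL-1) replace Psmb5 (beta 5), Psmb6 (beta 1) and Psmb7 (beta 2) in newly assembled cores. The resulting immunoproteasome and the PA28 alpha-beta ring made from Psme1 and Psme2 are known for producing peptides for MHC class I, and the immunoproteasome is abundant in T cells.

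Promoters are shown for the 4 genes of the exchange and of PA28 in which a searched motif of the IRF, GAS or NRF1 type was found (the table used has no window for Psmb7, which was not searched); each runs 5′ to 3′ from 250 bases before to 50 bases after the RefSeq start site (GRCm38.p6), with the match in capitals and positions counted from 0 at the start site. The Psmb8 window (chr17:34197945-34198244, plus strand) holds a GAS-type match, TTCNNNGAA, at -97 to -89. The Psme1 window (chr14:55578244-55578543, plus strand) holds an IRF-type match, which is GAAA repeated after 2 bases of any kind and here lies on the other strand, at 9 to 18. The Psmb5 window (chr14:54617946-54618245, minus strand) and the Psmb6 window (chr11:70525107-70525406, plus strand) hold the NRF1-type core TGACNNNGC, at -47 to -39 and at -9 to -1.
Psmb8: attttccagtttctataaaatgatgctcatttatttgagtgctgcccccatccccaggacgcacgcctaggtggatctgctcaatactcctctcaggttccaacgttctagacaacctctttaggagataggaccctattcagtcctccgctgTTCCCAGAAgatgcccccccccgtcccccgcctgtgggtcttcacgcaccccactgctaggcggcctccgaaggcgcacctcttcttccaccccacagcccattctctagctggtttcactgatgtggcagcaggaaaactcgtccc
Psme1: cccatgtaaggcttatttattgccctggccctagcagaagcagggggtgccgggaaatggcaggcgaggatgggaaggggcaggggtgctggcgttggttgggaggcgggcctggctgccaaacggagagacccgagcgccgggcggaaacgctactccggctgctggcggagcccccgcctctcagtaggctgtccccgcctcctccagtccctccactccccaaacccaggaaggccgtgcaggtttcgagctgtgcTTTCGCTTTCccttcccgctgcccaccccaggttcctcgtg
Psmb5: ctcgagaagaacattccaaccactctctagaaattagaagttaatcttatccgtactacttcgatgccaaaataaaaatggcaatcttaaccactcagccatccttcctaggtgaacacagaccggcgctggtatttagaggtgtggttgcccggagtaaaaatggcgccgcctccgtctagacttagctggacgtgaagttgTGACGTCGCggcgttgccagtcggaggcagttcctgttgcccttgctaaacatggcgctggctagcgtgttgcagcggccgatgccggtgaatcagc
Psmb6: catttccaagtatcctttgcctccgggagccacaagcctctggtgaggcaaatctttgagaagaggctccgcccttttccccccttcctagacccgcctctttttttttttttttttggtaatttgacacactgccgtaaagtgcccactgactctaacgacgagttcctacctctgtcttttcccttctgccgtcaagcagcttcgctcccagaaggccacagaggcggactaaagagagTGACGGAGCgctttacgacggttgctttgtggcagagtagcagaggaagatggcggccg
Both strands were searched. Some genes have several windows in the RefSeq table, so a gene is counted where any of its windows holds the letters. Of 27025 genes, 9.55% hold the GAS-type letters, 3.99% the IRF-type letters and 14.0% the NRF1-type letters. Among the 5 immunoproteasome genes (Psmb8, Psmb9, Psmb10, Psme1 and Psme2), the GAS-type letters were in 1, the IRF-type letters in 1 and the NRF1-type letters in 0. Among the 25 constitutive subunits with a promoter in the RefSeq table, the counts were 1 (Psmd2), 2 (Psmb3 and Psmd4) and 4 (Psmb5, Psmb6, Psmc6 and Psmd12). The ETS-type letters CCGGAAG, held by 9.93% of all genes, were in 0 of the 5 immunoproteasome genes and in 10 of the 25 constitutive ones. CCAAT, held by 41.1%, was in 1 (Psmb9) and 10. The letters GGGNNTTCC, of the NF-kB type and held by 6.58%, were in 0 and 1 (Psmd11). A match of letters is a description of the window and not a binding site.

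In the genome (GRCm38), Psmb8 (chr17:34197721-34201454, plus strand) and Psmb9 (chr17:34181987-34187764, minus strand) are in the MHC region, and Psmb9 shares 5.79% of its exonic bases with exons of Tap1 on the other strand. Psmb10 is at chr8:105935735-105938444 (minus strand). Psme1 (chr14:55578123-55581529, plus strand) and Psme2 (chr14:55587441-55591113, minus strand) are neighbours on the chromosome that also holds Psmb5 (chr14:54614119-54618022, minus strand). Psmb6 is at chr11:70525367-70527858 (plus strand) and Psmb7 at chr2:38588036-38644087 (minus strand), where 11.8% of its exonic bases overlap Nek6 on the other strand. Of the exonic bases of Psmb8, 14.7% overlap the gene Gm20496 on the other strand. Whether the counting used strand is not given in the sources used here, so reads of such overlaps cannot be told apart. Psme2 and its copy Psme2b are 99.4% identical over 794 bases, and Psmb5 has the copy Gm3375, 98.9% identical over 796 bases, so their counts are uncertain to the extent that reads were split or dropped. Psmc1, Psma3, Psma4, Psma5, Psmb3, Psmd2 and Psmd11 also have near-identical copies. Psmd1 and Psmg3 are 100% identical over 305 and 238 bases to Gm21972 and Gm26938, which overlap them on the same strand.

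Between 3250 and 7105 cells were kept in each library, with 10589950 to 32648496 UMIs in all and a median of 3016 to 5065 per cell; the 50 IU/mL IL-2 library of day 5 had the lowest total and the lowest median. Cd3d was detected in 93.0% to 99.5% of cells and Cd8b1 in 54.5% to 92.0%, whereas no more than 1.49% had Cd4, 0.0209% Ms4a1 (a B cell gene) and 0.126% Lyz2 (a myeloid gene). The marker sums for B cells (1.54 to 17.8 CPM) and dendritic cells (0 to 0.470 CPM) were low in every library. Fcer1g, which belongs to the myeloid list and which activated CD8 T cells can also express, was in up to 17.7% of cells (50 IU/mL IL-2, day 10), and the myeloid sum ran from 0.343 to 114 CPM. Any 2 libraries shared 1 to 19 cell barcodes, at most 0.340% of the smaller library. The share of cells with a UMI of the proliferation genes Mki67 or Top2a ranged from 3.01% in naive cells to 86.9% (50 IU/mL IL-2v, day 3). With every cell thinned to 2000 UMIs, since a deeper cell shows such a UMI more often, it ranged from 1.74% to 77.7% in the same libraries. The share is given beside the results with which it moves, first for all UMIs and then thinned; no cell type that lacks both genes was at hand to give a background. For the members UMIs were summed over cells. The levels below therefore do not separate fewer cells with a transcript from less of it per cell, and this was not examined.

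Proteasome genes took 0.522% of all UMIs in the library with the least (50 IU/mL IL-15, day 10) and 0.751% in that with the most (50 IU/mL IL-2v, day 3). The 31 constitutive subunits of the 20S core and 19S cap summed to a median of 4136 CPM, with the lowest sum in naive cells (3258 CPM) and the highest at 50 IU/mL IL-2v on day 3 (4973 CPM). The 5 immunoproteasome genes summed to a median of 1964 CPM; their lowest sum was at 50 IU/mL IL-2 on day 3 (1500 CPM) and their highest without cytokine on day 5 (2743 CPM). The constitutive sum and the immunoproteasome sum therefore had their extremes in different libraries. Among members the median SD over libraries of log2(CPM + 1) was 0.32 for the 5 immunoproteasome genes and 0.26 for the constitutive subunits, against 0.35 over the 5495 genes that averaged 20 CPM or more.

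**Figure D1:**
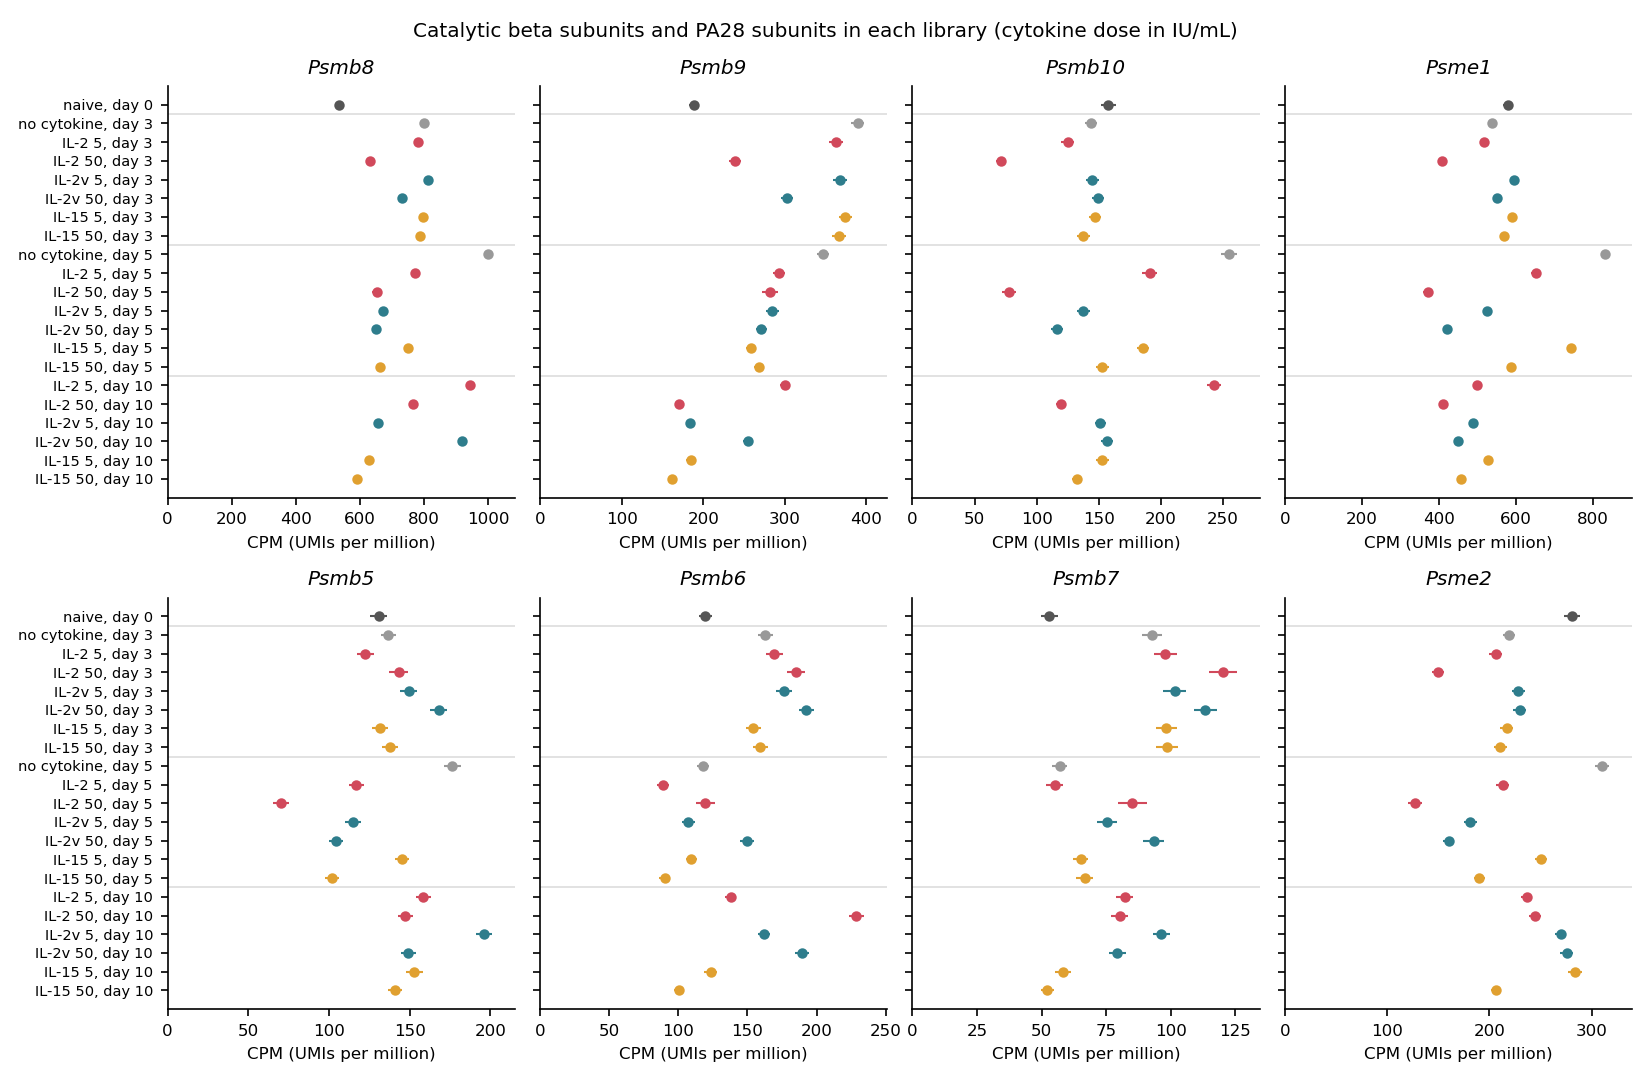
Level in CPM of the 3 immunoproteasome catalytic subunits, their 3 constitutive counterparts, Psme1 and Psme2 in the 21 libraries; points are libraries, coloured by cytokine, and bars are exact 95% Poisson intervals, which cover counting error only. Psmb8 runs from 534 CPM in naive cells to 1000 CPM without cytokine on day 5, and Psmb10 is lowest at 50 IU/mL IL-2 on day 3 (71.5 CPM).

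The replacement of each catalytic subunit was followed as the share of UMIs of a pair that came from the immunoproteasome gene, and as the log2 ratio of the 2 genes, here called the balance; neither depends on how libraries are scaled. UMIs were not scaled to gene length, so the share is read between libraries and not as relative abundance within one. Over all 6 catalytic genes the share was 74.4% in naive cells (95% Clopper-Pearson interval 73.8% to 75.0%, counting error only). It was highest on day 5 at 5 IU/mL IL-2 (82.8%, 82.4% to 83.2%) and without cytokine (82.0%, 81.7% to 82.4%), and lowest at 50 IU/mL IL-2 on day 3 (67.7%, 67.1% to 68.4%). The median over libraries was 76.5%, and 13 of the 20 neighbours in the order had overlapping intervals. The pairs covered unequal ranges. Psmb8 took 77% to 90.3% of its pair with Psmb5, Psmb9 took 42.7% to 76.7% of its pair with Psmb6, and Psmb10 took 37.3% (35.6% to 39.0%) to 81.8% (80.9% to 82.6%) of its pair with Psmb7.

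**Figure D2:**
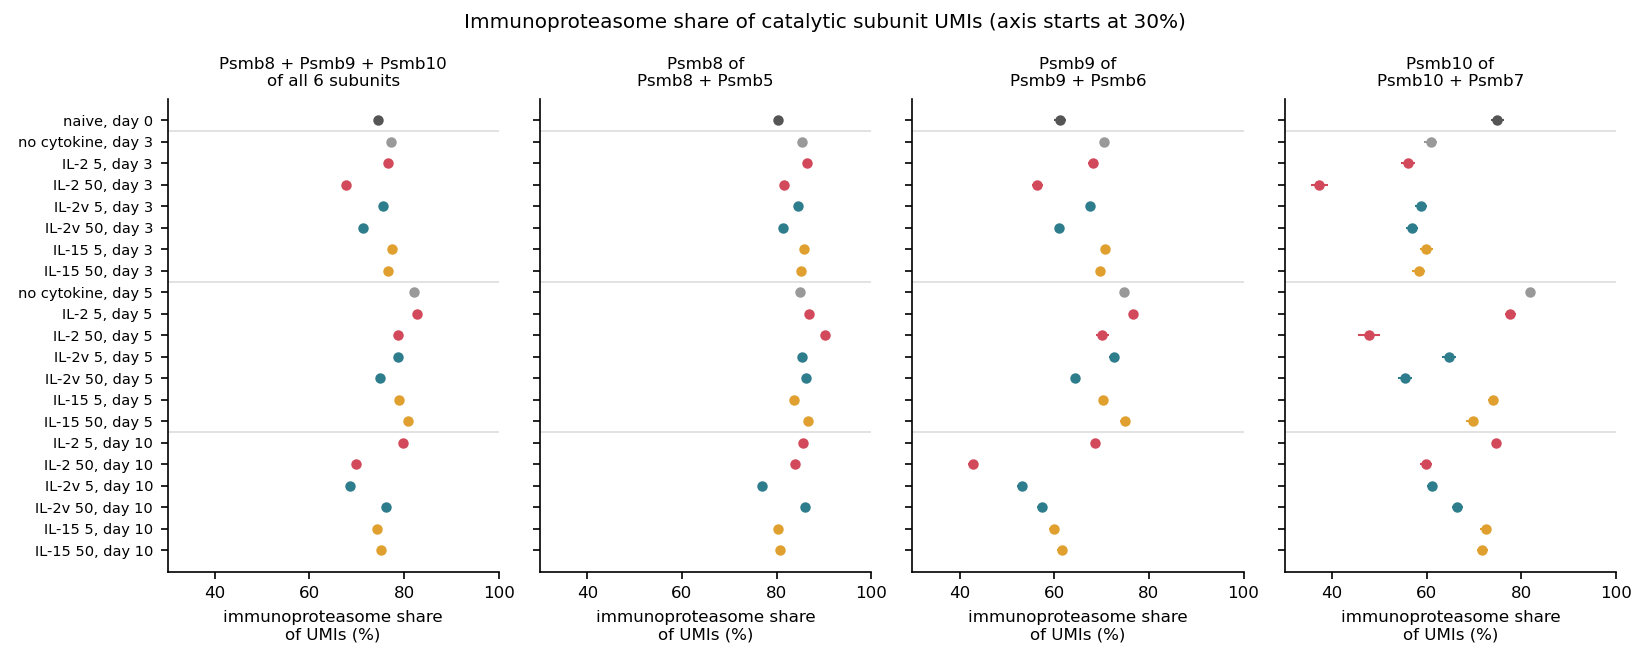
Share of UMIs, in percent, from the immunoproteasome subunit: all 6 catalytic genes together and each of the pairs, for the 21 libraries grouped by day and coloured by cytokine; bars are 95% Clopper-Pearson intervals and the axis starts at 30%. The Psmb10 share spans 37.3% to 81.8%, while the Psmb8 share stays between 77% and 90.3%.

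The first comparison was between naive cells and cells activated with beads for 3 days without cytokine. Psmb8 was at 534 CPM in naive cells and 799 CPM after activation, and Psmb9 at 189 and 389 CPM. Their partners moved less: Psmb5 was at 131 and 137 CPM and Psmb6 at 120 and 163 CPM. The balance was thus higher after activation by 0.52 for Psmb8 over Psmb5 and by 0.60 for Psmb9 over Psmb6 (log2 units). Psmb10 over Psmb7 went the other way: Psmb10 was at 158 and 144 CPM, Psmb7 at 52.9 and 92.6 CPM, and the balance differed by -0.94, the share passing from 74.9% to 60.8%. With the pairs summed, these opposite movements left a difference of 0.23 (0.17 to 0.28). Psme1 (578 and 538 CPM) and Psme2 (281 and 219 CPM) were both lower after activation.

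Most core and cap subunits were higher after activation. Of the 31 constitutive subunits, 26 were higher on day 3 than in naive cells, also under both other scalings tried (43.8% of all genes were higher and 56.2% lower), and their median difference of 0.30 log2 units lay 0.41 above that of all genes (-0.11). The core subunits differed more than the cap, with a median of 0.45 over the 14 genes of the 20S core and 0.16 over the 17 of the 19S cap. Largest among them were Psmd8 (0.93), a non-ATPase subunit, Psmc1 (0.87), an ATPase, Psmb7 (0.80) and Psmd13 (0.72). Members that were lower included Psme2b (-0.62), the 19S chaperone Psmd5 (-0.48) and the alpha subunit Psma3 (-0.33). Of 47 members with at least 20 CPM in either library, only Psmb9 (1.04) was at least 2-fold apart, the size used throughout to call a difference; of all 6171 genes, 11.1% were called higher and 8.31% lower. The share of cells with a Mki67 or Top2a UMI was 3.01% in naive cells and 60.0% on day 3 (1.74% and 50.7% thinned). Among the remaining cells, in which neither gene had a UMI, 27 of 47 members were higher and 20 lower (37.4% and 62.6% of genes). In all cells 35 were higher and 12 lower. The summed balance of the remaining cells differed by 0.44.

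Without cytokine, the day 5 library had more immunoproteasome RNA than the day 3 library. Psmb10 passed from 144 to 255 CPM, Psme1 from 538 to 831 CPM, Psme2 from 219 to 310.2 CPM and Psmb8 from 799 to 1000 CPM. Psmb9 was the exception among the 5, at 389 and 347 CPM. The day 5 values of Psmb8, Psmb10, Psme1 and Psme2 were the highest of the 21 libraries. Psmb6 (163 and 118 CPM) and Psmb7 (92.6 and 56.9 CPM) were lower on day 5, and Psmb5 (137 and 176 CPM) was higher. The balance of Psmb10 over Psmb7 was 1.53 higher, that of Psmb9 over Psmb6 was 0.30 higher, and that of Psmb8 over Psmb5 differed by -0.04. Summed, it was 0.43 higher (0.38 to 0.47). The constitutive subunits as a whole went neither way, with 15 higher and 16 lower (18 and 13 under TMM, a scaling of libraries by the trimmed mean of log ratios) and a median of -0.0066 beside -0.0016 for all genes, of which 49.9% were higher and 50.1% lower (58.2% and 41.8% under TMM). None of the 46 members tested was called (3.61% of 5785 genes were called higher and 9.47% lower), and the largest differences outside the immunoproteasome genes were Psmb7 (-0.69), the nuclear activator Psme4, or PA200 (-0.65), and the core chaperone Psmg1 (-0.63). The 6 T cell markers (Cd3d, Cd3e, Cd3g, Cd8a, Cd8b1 and Trac) moved in the same libraries: 5 of 6 were higher on day 5, with a median of 0.51 beside 0.50 for the 5 immunoproteasome genes, and their sum was 3902 CPM on day 3 and 5519 CPM on day 5. Cells with a Mki67 or Top2a UMI made up 60.0% on day 3 and 13.8% on day 5 (50.7% and 7.73% thinned). Among cells in which neither gene had a UMI, the summed balance was 0.25 higher on day 5, against 0.43 in all cells. The part of the T cell markers was not tested.

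Cytokine was then compared with no cytokine on days 3 and 5; the 6 comparisons of a day share 1 control library. On day 3 the immunoproteasome genes were near the control at 5 IU/mL and with IL-15. The summed balance differed by 0.01 and -0.06 for IL-15 at 5 and 50 IU/mL, by -0.06 for 5 IU/mL IL-2 and by -0.13 for 5 IU/mL IL-2v. At 50 IU/mL it differed by -0.69 for IL-2 and -0.44 for IL-2v. In those 2 libraries the T cell markers summed to 2238 and 2637 CPM against 3902 CPM in the control, and cells with a Mki67 or Top2a UMI made up 73.8% and 86.9% against 60.0% (62.8% and 77.7% against 50.7% thinned). Among cells with neither UMI the balance differed by -0.80 for IL-2 and -0.57 for IL-2v at 50 IU/mL, and its median over the 6 pairs was -0.16, against -0.096 in all cells. The part of the T cell markers was not tested. In the 50 IU/mL IL-2 library Psmb10 was at 71.5 CPM against 144 CPM, Psmb9 at 239 against 389 CPM and Psme2 at 149 against 219 CPM. With 50 IU/mL IL-2v, Psmb10 was at 149 CPM and Psme2 at 229 CPM, close to the control, and Psme3, the activator also called PA28 gamma, was 2-fold or more higher (91.5 against 39.2 CPM, log2 difference 1.20); 7.83% of the genes tested in that pair were called higher. Over the 6 pairs no member of 46 was called (0.329% of 5772 genes were called higher and 0.139% lower). By direction alone, 14 members were higher and 2 lower in all 6 pairs, against 34.1% and 8.35% of all genes, but TMM scaling turned the counts to 4 and 9, against 17.9% and 19.7%. Of the 5 immunoproteasome genes, only Psmb9 was lower in all 6 pairs. Under TMM scaling Psmb8, Psmb10 and Psme2 were lower in all 6 as well. The same held with totals without ribosomal protein and mitochondrial genes, where 13.9% of all genes were lower.

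On day 5 all 5 immunoproteasome genes were lower than without cytokine in all 6 libraries with cytokine, under each of the scalings tried; of all 5756 genes tested, 25.1% were lower and 19.4% higher in all 6. The median differences were -0.81 for Psmb10, -0.74 for Psme2, -0.58 for Psmb8, -0.58 for Psme1 and -0.33 for Psmb9. Psmb10, at 255 CPM without cytokine, had 191 CPM at 5 and 77.7 CPM at 50 IU/mL of IL-2, 138 and 116 CPM at those doses of IL-2v, and 186 and 153 CPM at those of IL-15. Each cytokine thus had the lower value at the higher dose. Psme1 showed the same order, at 831 CPM without cytokine, 651 and 370.4 CPM under IL-2, 525 and 420.0 CPM under IL-2v, and 742 and 587 CPM under IL-15. For Psmb8 the value without cytokine was 1000 CPM and the others were between 649 and 771 CPM. Of the 31 constitutive subunits, 12 were lower in all 6 libraries and 1, Psmd8, was higher (15 and 1 under TMM scaling, which put 31.2% of all genes lower and 18.9% higher in all 6). Psmb5 was among those that were lower, at 176 CPM without cytokine and 70.1 to 145 CPM with it. The median of the constitutive subunits minus that of all genes was -0.17, taken in each pair over the genes tested in the comparison as a whole and then as the median over the 6 pairs. No member of 46 was called over the 6 pairs (6.06% of all genes were called higher and 1.67% lower).

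The pairs again differed. The median balance was -1.13 for Psmb10 over Psmb7, -0.24 for Psmb9 over Psmb6 and 0.16 for Psmb8 over Psmb5, with -0.30 for all summed. For Psmb10 over Psmb7, IL-2 had -0.37 at the lower and -2.29 at the higher dose, IL-2v -1.29 and -1.85, and IL-15 -0.65 and -0.96. In single pairs the 50 IU/mL IL-2 library had the most calls: Psmb10 (-1.70), Psmb5 (-1.32), the cap subunit Psmd6 (-1.32), Psme2 (-1.28), Psme1 (-1.16) and the ATPases Psmc5 (-1.14) and Psmc4 (-1.08) were lower, and the ATPase Psmc6 (1.09) and Psme4 (1.04) were higher, against 16.5% of genes called higher and 7.54% lower. That library has the fewest UMIs of all. With 50 IU/mL IL-2v, Psme4 (1.13) and Psme3 (1.08) were called higher and Psmb10 (-1.13) lower (21.1% and 5.53% of genes). The T cell markers moved with these genes. Of 6, 5 were lower than the control in all 6 libraries, also under TMM scaling, with a median of -0.67 beside -0.58 for the 5 immunoproteasome genes, and their sum was 2952 to 4339 CPM against 5519 CPM in the control. Cells with a Mki67 or Top2a UMI made up 13.8% of the control (7.73% thinned); by dose they made up 18.7% and 50.4% under IL-2 (12.5% and 47.4%), 39.8% and 66.7% under IL-2v (34.2% and 60.1%), and 21.1% and 24.6% under IL-15 (14.6% and 19.5%). The part of the markers in the result was not tested. Leaving out all cells in which either proliferation gene had a UMI, the median summed balance was -0.25.

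With IL-2 the balance was lower at 50 than at 5 IU/mL on each of the 3 days. The summed difference was -0.63 on day 3, -0.38 on day 5 and -0.76 on day 10. Psmb10 over Psmb7 was at -1.10, -1.93 and -0.99, and Psmb9 over Psmb6 at -0.73, -0.48 and -1.54. Psmb8 over Psmb5 did not keep a direction, at -0.54, 0.50 and -0.19. Psmb10 itself was at 125 and 71.5 CPM on day 3, 191 and 77.7 CPM on day 5, and 243 and 120 CPM on day 10 (5 and 50 IU/mL). Its median difference of -1.02 made it the 1 member of 46 called for IL-2 dose, where 4.29% of 5879 genes were called higher and 2.70% lower. The call is at the threshold: the median is smaller in size than 1 under TMM scaling (-0.85), without day 5 or its 50 IU/mL library, and under 4 other alternatives. In these settings Psmb10 was lower at 50 IU/mL on each day that they include.

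The other immunoproteasome genes followed by smaller amounts. Psmb9 was at 363 and 239 CPM on day 3, 292 and 281 CPM on day 5, and 300.1 and 171 CPM on day 10. Psmb8 (median -0.30) and Psme1 (-0.34) were lower at 50 IU/mL on each day, but TMM scaling turned their day 10 differences from -0.30 and -0.29 to 0.01 and 0.02. Psme2 was at -0.46, -0.73 and 0.05. Psmb6, the partner of Psmb9, was higher at 50 IU/mL on each day (169 and 185 CPM, 88.9 and 120 CPM, 138 and 229 CPM). Counted over members, 13 were higher and 7 lower on all 3 days, against 21.8% and 20.9% of all genes; under TMM scaling the counts were 16 and 4, against 25.5% and 23.1%. The other 3 that were lower were the core subunits Psmb1, Psmb2 and Psma5, and those higher included Psmc6 (0.53), the cap subunit Psmd1 (0.51) and the alpha subunit Psma7 (0.47). Psmc6 was called on day 5, at 89.7 and 196 CPM (1.12; 14.1% of genes were called higher). In single days Psmb10 was called on days 5 and 10, when 3.4% and 14.5% of genes were called lower. The T cell markers were lower at 50 IU/mL too: all 6 on all 3 days (4 of 6 under TMM scaling), with a median of -0.57, and Cd8b1 was called. Their sum was 3806 and 2238 CPM on day 3, 4339 and 2952 CPM on day 5, and 3882 and 2927 CPM on day 10. The share of cells with a Mki67 or Top2a UMI was higher at 50 IU/mL on days 3 and 5 (62.8% and 73.8%, 18.7% and 50.4%; thinned 54.9% and 62.8%, 12.5% and 47.4%) and lower on day 10 (18.2% and 13.4%; thinned 11.3% and 7.78%). Among cells without those UMIs the median summed balance was -0.66; the part of the T cell markers was not tested.

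**Figure D3:**
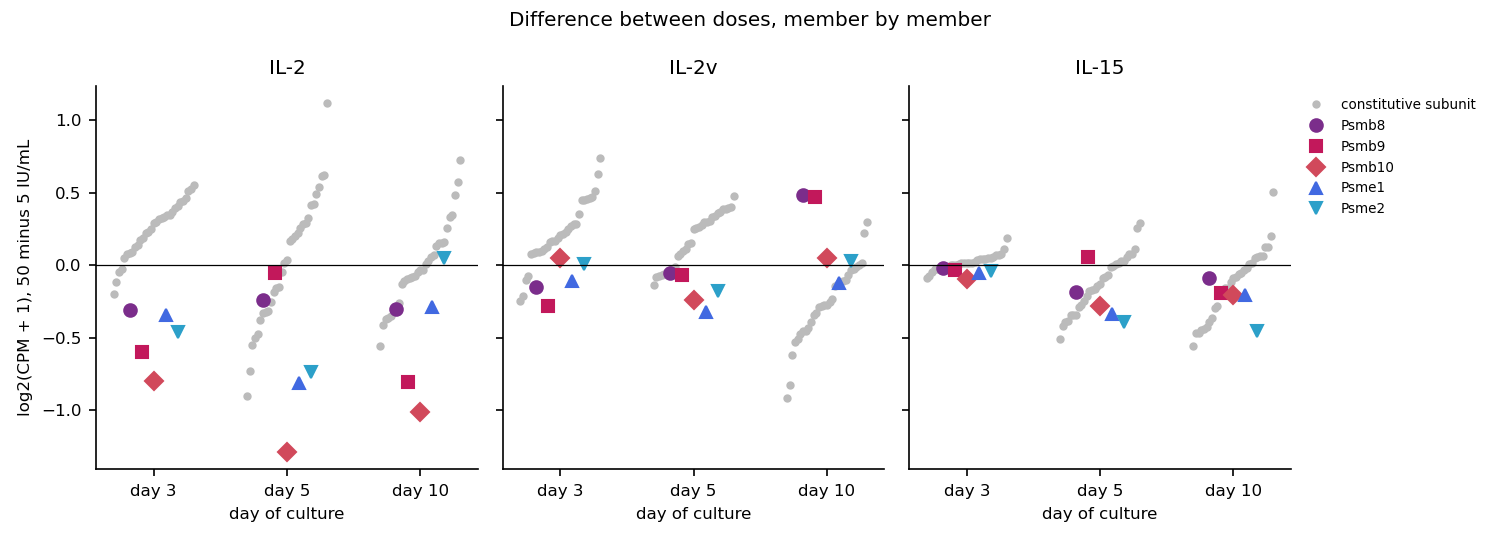
Difference between 50 and 5 IU/mL in log2(CPM + 1) for each proteasome subunit by day, in 1 panel per cytokine; grey points are the constitutive subunits and coloured markers the 5 immunoproteasome genes, 1 library per dose and day. In the IL-2 panel Psmb10 is the lowest of the immunoproteasome genes on each day (-0.80, -1.29 and -1.02).

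With IL-2v and IL-15 the direction of the dose difference varied by day. For IL-2v the dose difference of the summed balance was -0.31 on day 3, -0.30 on day 5 and 0.55 on day 10, and Psmb10 was at 145 and 149 CPM, 138 and 116 CPM, and 151 and 157 CPM. For IL-15 it was -0.07, 0.16 and 0.06, with Psmb10 at 147 and 138 CPM, 186 and 153 CPM, and 153 and 132 CPM. No member was called for IL-2v (2.38% of 5913 genes were called higher and 0.626% lower) or for IL-15 (0.869% and 0.181% of 5523). With IL-15, Psme2 (-0.39), Psmb10 (-0.21), Psme1 (-0.20) and Psmb8 (-0.09) were lower at 50 IU/mL on all 3 days, by less than 2-fold, Psmb8 not under TMM scaling; the differences between the cytokines in their dose effect have no replicate check. In 1 pair a member was called, the PA28 beta copy Psme2b on day 10 with IL-15 (29.4 and 13.6 CPM, -1.06; 2.37% of genes were called lower). By direction on all 3 days, IL-2v dose had 6 members higher and 4 lower, against 21.3% and 15.8% of genes (under TMM scaling 5 and 9, against 14.9% and 25.3%). IL-15 dose had 5 higher and 12 lower, against 20.5% and 16.6% (under TMM scaling 4 and 14, against 19.4% and 21.6%). With IL-15 dose, 4 of 6 T cell markers were lower on all 3 days (6 of 6 under TMM scaling), with a median of -0.24, and Mki67 and Top2a were both higher on all 3 days. Their part was not tested.

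Between cytokines at the same dose and day, the order of the balance depended on both. IL-2v against IL-2 had a summed balance of -0.07, -0.39 and -0.85 at 5 IU/mL on days 3, 5 and 10, and of 0.25, -0.31 and 0.46 at 50 IU/mL. IL-15 against IL-2 had 0.07, -0.36 and -0.44 at 5 IU/mL, and 0.63, 0.18 and 0.38 at 50 IU/mL. At 5 IU/mL the balance was therefore lower than with IL-2 under both other cytokines on days 5 and 10, and at 50 IU/mL it was higher under both on days 3 and 10. The IL-2 libraries are shared by these comparisons. IL-2v against IL-15 had -0.15, -0.02 and -0.40 at 5 IU/mL and -0.38, -0.49 and 0.08 at 50 IU/mL. At 50 IU/mL on day 3, Psmb10 was at 71.5 CPM with IL-2, 149 CPM with IL-2v and 138 CPM with IL-15. The IL-2v value was called against IL-2 (1.05; 1.22% of genes were called higher in that pair).

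No member met the rule over all 6 pairs of any of these comparisons (46 members and 1.04% of genes higher and 0.274% lower for IL-2v against IL-2, 47 and 0.490% and 1.70% for IL-15 against IL-2, 47 and 2.48% and 0.585% for IL-2v against IL-15). Some kept a direction. With IL-2v, 8 of 46 members were higher than with IL-2 in all 6 pairs and 0 lower, led by Psme3 (0.62) and the cap subunit Psmd3 (0.43). Of all genes, 17.0% were higher and 4.21% lower, so the members that were higher were near the share of all genes. Under TMM scaling 3 were higher and 0 lower, below the 12.4% and 8.87% of all genes. Against IL-15, IL-2v had 17 members higher in all 6 pairs, 13 of them constitutive subunits, and 0 lower, against 19.1% and 8.02% of all genes; under TMM scaling 9 were higher, 6 of them constitutive subunits, and 0 lower, against 13.9% and 13.2%. IL-15 against IL-2 had Psme1 (0.19) and the chaperone Psmg4 (0.27) higher and Psmc6 (-0.45) and Psme4 (-0.34) lower in all 6. These counts among 47 members were below the 7.68% and 9.58% of all genes. Cell type markers also differed between IL-15 and IL-2. Cd8b1 was called higher and Fcer1g lower with IL-15 over the 6 pairs, against the 0.490% and 1.70% of genes above. At 50 IU/mL on days 3, 5 and 10 the T cell markers summed to 2238, 2952 and 2927 CPM with IL-2 and to 3859, 3674 and 3587 CPM with IL-15. Fcer1g was at 113 CPM with 50 IU/mL IL-2 on day 10 and 1.004 CPM with IL-15, while the myeloid genes Lyz2, Csf1r and Adgre1 had 0 UMIs in both. Itgam, the remaining gene of the myeloid list, was at 0.440 CPM with IL-2 and 0.565 CPM with IL-15 in these libraries. With IL-2v, 2 of 6 T cell markers were lower than with IL-15 in all 6 pairs and 0 higher, with a median of -0.31. The part of these markers in the balance and in the directions of members was not tested. The share of cells with a Mki67 or Top2a UMI, thinned or not, was higher with IL-2v than with IL-2 and than with IL-15 in each of the 6 pairs. Among cells with neither UMI, IL-2v had 6 of 46 members higher than IL-2 in all 6 pairs, near the 12.7% of all genes, and 0 lower (3.46%). Against IL-15 it had 12 of 47 higher and 0 lower (12.6% and 7.77% of genes). In those cells the median summed balance was -0.071 for IL-2v against IL-2, compared with -0.19 in all cells. The median of all cells turned positive without day 5. Without the 50 IU/mL IL-2 library of day 5 it was close to that of the cells with neither UMI.

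Single pairs held a few calls among regulators and cap subunits. Psme3 was 2-fold or more higher with IL-2v than with IL-2 at 50 IU/mL on day 5 (68.2 and 21.1 CPM, 1.65) and at 5 IU/mL on day 10 (74.6 and 28 CPM, 1.38), with IL-15 than with IL-2 at 50 IU/mL on day 5 (59.5 and 21.1 CPM, 1.46), and with IL-2v than with IL-15 at 5 IU/mL on day 10 (74.6 and 36.7 CPM, 1.0). Of all genes, 5.73%, 6.78%, 4.29% and 10.7% were called higher in these pairs. The day 5 comparisons of Psme3 rest on its lowest value of all libraries, that of 50 IU/mL IL-2. Against IL-2, IL-2v also had the cap subunits Psmd7 (1.06, 50 IU/mL, day 5) and Psmd1 (1.14, 5 IU/mL, day 10) higher. IL-15 had Psmc6 (-1.31, 50 IU/mL, day 5), Psmb6 (-1.18) and Psmd8 (-1.02, both 50 IU/mL, day 10) lower than IL-2, against 8.01% of genes called lower on day 5 and 11.6% on day 10. At 5 IU/mL on day 10, IL-2v was above IL-15 for Psmg1 (1.20) and Psmd8 (1.03).

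From day 5 to day 10 the balance of all cells was lower in 5 of 6 conditions. At 5 and 50 IU/mL the summed difference was -0.29 and -0.67 (IL-2), -0.75 and 0.09 (IL-2v), and -0.37 and -0.47 (IL-15). Psmb9 over Psmb6 was lower in all 6 (median -0.77), and so was Psmb8 over Psmb5 (-0.48), though by only -0.01 at 50 IU/mL IL-2v. Psmb10 over Psmb7 went both ways: at 5 and 50 IU/mL it was at -0.23 and 0.71 (IL-2), -0.22 and 0.67 (IL-2v), and -0.12 and 0.14 (IL-15). Psmb5 (median 0.49) and Psmb6 (0.46), the partners of Psmb8 and Psmb9, were higher on day 10 in all 6 conditions, except that TMM scaling put Psmb5 at -0.0077 for 5 IU/mL IL-15. Psmb6 passed from 88.9 to 138 CPM at the lower and from 120 to 229 CPM at the higher dose of IL-2, from 107 to 162 CPM and 150 to 190 CPM under IL-2v, and from 109 to 123 CPM and 90.1 to 100.3 CPM under IL-15. Psmb9 on day 10 was lowest with 50 IU/mL IL-15 (161 CPM) and highest with 5 IU/mL IL-2 (300.1 CPM). In all, 8 members were higher and 2 lower in all 6 conditions, against 4.72% and 10.1% of all genes (under TMM scaling 11 and 1, against 12.4% and 7.5%). The 2 lower were Psme4 (-0.61) and Psmc1 (-0.38), which under TMM scaling was not lower in all 6. The higher ones also included Psma5 (0.45) and Psme2 (0.37); TMM scaling turned Psme2 in 1 condition, 5 IU/mL IL-2.

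No member of 46 was called over all conditions (0.0705% of 5676 genes were called higher and 1.62% lower). The constitutive subunits lay 0.22 above all genes by the median measure used for day 5, with single conditions from -0.15 (5 IU/mL IL-15) to 0.61 (50 IU/mL IL-2). In single conditions, 50 IU/mL IL-2 had Psme3 (1.06) and Psmb5 (1.06) called higher and Psmg1 (-1.03) lower on day 10, against its day 5 library of few UMIs (in which pair 5.99% of genes were called higher and 19.4% lower), and 50 IU/mL IL-2v had Psmc1 (-1.18) lower (11.6% of genes). The share of cells with a Mki67 or Top2a UMI was lower on day 10 than on day 5 in 5 of the 6 conditions. The exception, 5 IU/mL IL-2v (39.8% and 40.6%), was lower as well when thinned (34.2% and 31.3%). Among cells in which neither gene had a UMI, the summed balance was lower on day 10 in all 6 conditions. At 5 and 50 IU/mL it differed by -0.27 and -0.63 (IL-2), -0.83 and -0.072 (IL-2v), and -0.45 and -0.50 (IL-15).

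**Figure D4:**
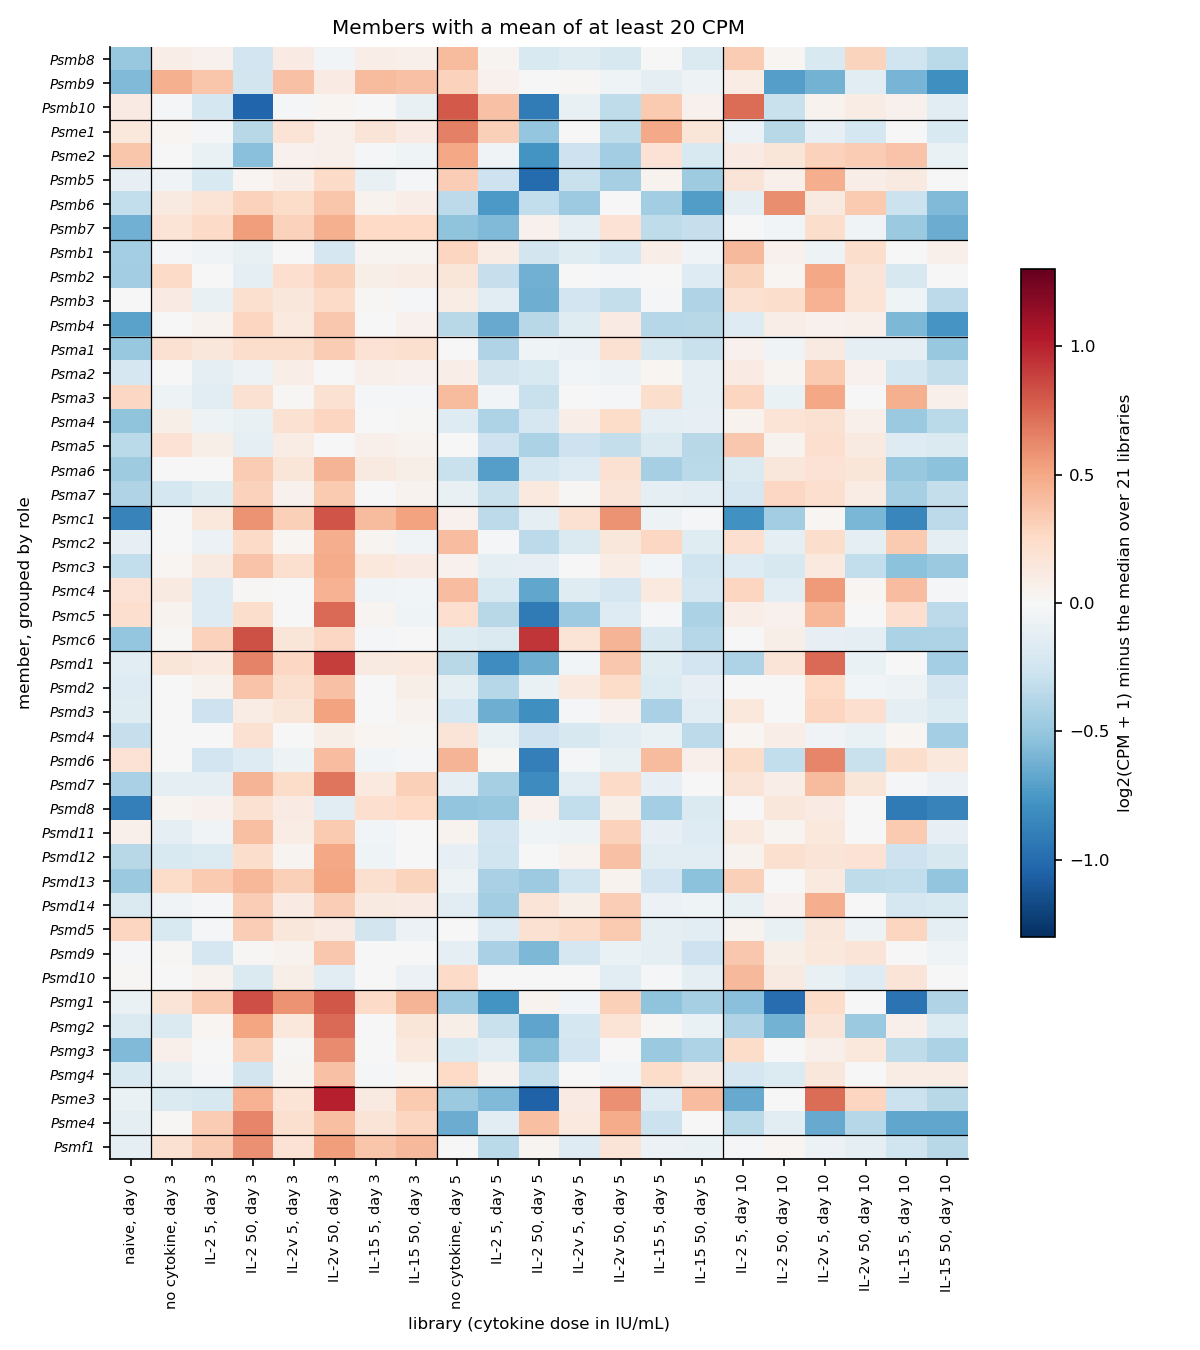
Level of the 46 members with a mean of at least 20 CPM (rows, ordered by role) in the 21 libraries (columns), as log2(CPM + 1) minus the median of the member over libraries. The constitutive subunits sum highest at 50 IU/mL IL-2v on day 3 (4973 CPM), followed by 5 IU/mL IL-2v on day 10 (4795 CPM). Psmb10, Psme1 and Psme2 are highest without cytokine on day 5.

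Among the 46 members that averaged at least 20 CPM, those with the widest spread were not catalytic. Psmg1, the core chaperone known as PAC1, had an SD of 0.54 log2 units and ran from 13.9 CPM (50 IU/mL IL-2, day 10) to 51.7 CPM (50 IU/mL IL-2, day 3). Psme3 had 0.50 and ran from 21.1 CPM (50 IU/mL IL-2, day 5) to 91.5 CPM (50 IU/mL IL-2v, day 3). Psmc1 had 0.49 and ran from 47.1 CPM in naive cells to 154 CPM at 50 IU/mL IL-2v on day 3, but has near-identical pseudogenes. The highest value of all 3 was thus on day 3 at 50 IU/mL. The narrowest were the 19S chaperone Psmd10, or gankyrin (0.15, 23.9 to 36.9 CPM), the alpha subunit Psma2 (0.15, 192 to 302 CPM) and the ubiquitin receptor Psmd4 (0.17, 105 to 164 CPM). Summed by role, the 4 core chaperones ran from 137 to 272 CPM and the 3 cap chaperones from 71.7 to 102 CPM. Psme4 was between 20.8 and 52.9 CPM. Psmc3ip (2.39 to 24.2 CPM) and Psme2b (9.15 to 29.4 CPM) stayed low. Psmb11, the core subunit of thymic cortical epithelium, had 16 UMIs over all libraries and Psma8, that of testis, had 3.

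Genes that work beside the proteasome were read from lists of other proteasome regulators and maturation factors, MHC class I peptide loading and interferon response. Of the regulators and maturation factors, 18 of 20 were measured. None met the fold rule in activation, in day 5 against day 3 without cytokine, or over all pairs of another comparison. Over the 47 single pairs they made 14 calls, or 1.67% of those tested, against 8.76% for all genes. Nfe2l1, the transcription factor NRF1 that drives proteasome genes, had the largest of these differences: it was at 31.6 CPM without cytokine on day 3 and at 90.1 and 78.2 CPM with 50 IU/mL IL-2 and IL-2v, and at 22.4 and 71.6 CPM at 5 and 50 IU/mL IL-2 on day 10. On day 3 against naive cells, of the class I loading genes only Tap1, a subunit of the peptide transporter, was called (136 and 275 CPM), and of 14 interferon response genes 2 were called higher and 4 lower, the largest of them Ifit3 (27.1 and 2.02 CPM), Ifit1 and Isg15, all lower (11.1% of all genes were called higher and 8.31% lower). Between days 3 and 5 without cytokine, Irf7 and Isg15 were called higher among 12 interferon response genes, whose median was 0.75, and the chaperone Canx was called lower (156 and 70.8 CPM), beside 3.61% and 9.47% of all genes. Against that day 5 control, the interferon response genes had a median of -0.73 with cytokine, 9 of 12 were lower in all 6 libraries (25.1% of all genes), and Irf7 and Isg15 were called lower (1.67%). At 50 against 5 IU/mL IL-2, 5 of 12 were called lower (2.70% of all genes), among them Irgm1 and Gbp2, and the list had a median of -0.81; of 12 class I loading genes, 7 were lower on all 3 days (20.9% of all genes), Tapbpl was called lower and Canx higher, with a median of -0.41. From day 5 to day 10, Gbp2 was called lower. The interferon response genes summed to 2031 CPM without cytokine on day 5, the highest of all libraries, and to 543 CPM at 50 IU/mL IL-15 on day 10, the lowest. Psmb8, Psmb10, Psme1 and Psme2 had their maximum in that day 5 library, and so did the sums of the class I loading genes (9164 CPM) and of the T cell markers (5519 CPM). The T cell marker sum was lowest at 50 IU/mL IL-2 on day 3 (2238 CPM), where the sum of the 5 immunoproteasome genes was lowest too.

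Within each library, cells with a UMI of Mki67 or Top2a were compared with cells without. The difference of all genes between these cells is not given here. Whether the members differed by more than genes in general was therefore not tested. The 19S subunits had more CPM in the cells with such a UMI in 21 of 21 libraries (median 0.23 log2 units), and the constitutive catalytic subunits in 20 (0.24), with Psmb6 alone in 20 (0.31). The immunoproteasome catalytic subunits were higher in 16 (0.07), with Psmb9 higher in 20 (0.15) and Psmb10 lower in 12 (-0.06). PA28 was lower in 17 (-0.15), and Psme1 alone in 18 (-0.16). Cap and constitutive catalytic genes thus had more CPM in these cells in most libraries, and PA28 less. All 14 constitutive genes of the 20S core, summed, were higher in 17 libraries, by a smaller median (0.08). The summed balance was lower in the cells with such a UMI in 19 of 21 libraries (median -0.16, range -0.30 to 0.06), with an interval of counting error below 0 in 17. Deeper cells are more likely to show a UMI of either gene; with every cell thinned to 2000 UMIs, the 19S genes were higher in 20 libraries (0.20), the constitutive catalytic genes in 19 (0.18), the immunoproteasome catalytic genes in 12 (0.012) and Psmb9 in 18 (0.27). The constitutive genes of the 20S core, summed, were higher in 13 (0.033). PA28 was lower in 18 (-0.22) and the balance was lower in 19 (-0.13), with an interval below 0 in 10.

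**Figure D5:**
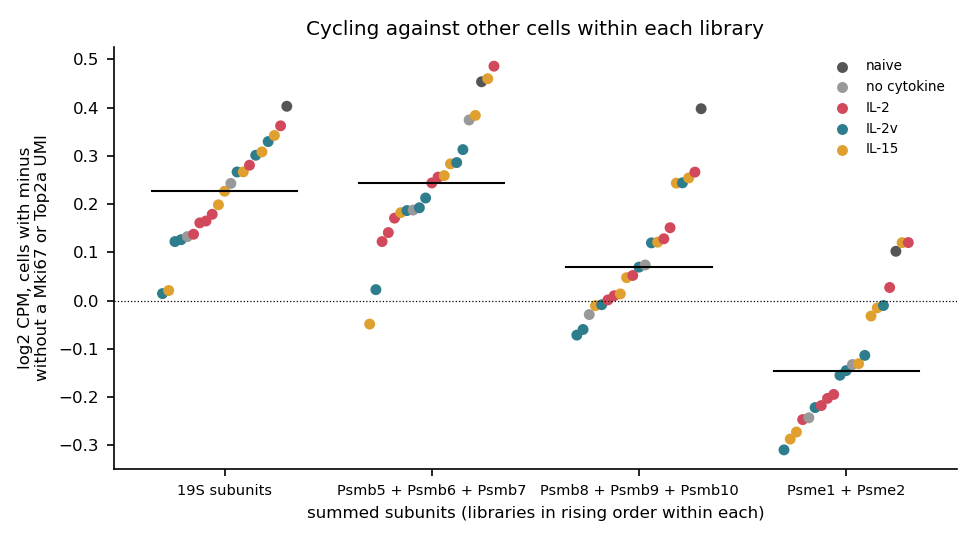
Difference in log2 CPM between cells with and without a UMI of Mki67 or Top2a within each of the 21 libraries, for the summed 19S subunits, constitutive catalytic subunits, immunoproteasome catalytic subunits and PA28; points are libraries coloured by cytokine and black bars are medians. The 19S points all lie above 0 (median 0.23), and 17 of the PA28 points lie below it (median -0.15). No value over all genes is shown.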

How the data were processed

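Single-cell RNA was counted as UMIs per gene and cell. The count tables were deposited by the authors, 1 per library and 21 in all; the submitters' processing notes name Cell Ranger, Seurat 3.0.2 and 4.0.1, and the mm10 build, and the values are whole-number counts. The annotation and the use of strand are not given in the sources used here, and the day 7 samples that the growth protocol names were not analysed here. Kept cells had 1000 UMIs and 500 genes or more, and a mitochondrial share of no more than 10%, which removed 2 barcodes; no doublet caller was run. UMIs were summed per library and scaled to CPM (10589950 to 32648496 UMIs). Differences are of log2(CPM + 1), which understates those of low genes, and a gene was tested with at least 20 CPM, as a mean, in either arm. A call is a difference of at least 2-fold; over several pairs, a median of at least 2-fold with 1 direction in every pair. With 1 library per condition no test was run; pairs of conditions were summarised by their median and direction, and the 95% intervals (exact Poisson for CPM, Clopper-Pearson for shares) cover counting error only. Members were named by role, and with values where they belong to the catalytic pairs or PA28, met the fold rule, or had one of the 3 largest or smallest SDs; of other lists, genes that met the fold rule, at most the 3 largest of each list and comparison. The gene family, the lists and the comparisons were chosen with earlier results of these data known, though the rule for members reads symbols alone.

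Alternatives were all barcodes, at most 5% mitochondrial UMIs, cells over 2 times the median UMIs left out, the mean CPM of single cells, cells with no Mki67 or Top2a UMI, TMM scaling, totals without ribosomal protein and mitochondrial genes, a pseudocount of 10 CPM, no expression filter, leaving out each day, each catalytic pair alone, and, chosen after seeing the data, leaving out the 50 IU/mL IL-2 library of day 5. Promoter sequences and start sites come from RefSeq (GRCm38.p6, 42 members matched) and gene positions from an annotation of the same build. Python 3.11.15, numpy 2.4.6, scipy 1.17.1, pandas 2.3.3, matplotlib 3.10.9 and R 4.3.3 with edgeR 4.0.16 (TMM factors only) were used. The fold rule was tested on simulated data for activation, with 5496 genes tested. Of 200 genes changed 4-fold, 100% were recovered, and 0 unchanged genes were called. This checks the script and covers counting error only. Differences near the 2-fold threshold were not simulated.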

Additional observations from a re-analysis of the deposited data

How the results depend on the processing

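With 1 library per condition no spread between replicates is known, no replicate could be left out, and depth limits only the counting error; differences of cultures, animals or library preparation cannot be told apart from those of the conditions. The labels give no replicate numbers to use as a block. Conditions matched by day, dose or cytokine were summarised by medians and directions, and a model over these matched pairs was not run. TMM scaling moved the median difference of all genes by -0.39 to 0.41, by over 0.1 in 26 of 47 pairs, and library totals counted without mitochondrial and ribosomal protein genes moved it by -0.20 to 0.29, so directions of single members are given relative to the library total. Keeping all barcodes brought back only the 2 that the filter had removed, so it could change little. Of 33 values in all, the counts of members at least 2-fold apart stayed equal. The others moved by less than the half-width of their 95% counting interval, taken for the constitutive subunits from the median subunit. Where a value below moved, the cause was not tested.

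The summed balance of all 3 catalytic pairs hid unlike pairs. With Psmb8 over Psmb5 alone it was 0.52 for activation, -0.043 for day 5 against day 3 without cytokine, 0.16 for cytokine against none on day 5, -0.33 for IL-15 against IL-2, -0.11 for IL-2v against IL-15, -0.19 for IL-2 dose, 0.085 for IL-2v dose and -0.48 for day 10 against day 5. With Psmb9 over Psmb6 alone it was, in the order of these comparisons, 0.60, 0.30, -0.24, 0.26, -0.33, -0.73, -0.41 and -0.77, and -0.18 for cytokine against none on day 3. With Psmb10 over Psmb7 alone it was -0.94, 1.53, -1.13, 0.50, -0.50, -1.10, -0.11 and 0.012, and -0.19 for cytokine against none on day 3, 0.28 for IL-2v against IL-2 and -0.10 for IL-15 dose.

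Choices of cells moved the size of the balance of a comparison but did not turn it, taken as the median where there were several pairs. Single pairs did turn among cells with no Mki67 or Top2a UMI. Day 10 against day 5 at 50 IU/mL IL-2v was at -0.072 there, against 0.095 in all cells. On day 3, 5 IU/mL IL-15 against none was at -0.058, against 0.013. At 5 IU/mL on day 5, IL-2v against IL-15 was at 0.018, against -0.022. With at most 5% mitochondrial UMIs the balance was 0.30 for activation, 0.37 for day 5 against day 3 without cytokine and 0.18 for IL-15 against IL-2, and the constitutive subunits lay at -0.12 relative to all genes on day 5 against day 3. The balance of day 5 against day 3 was 0.49 without cells of over 2 times the median UMIs and 0.49 as a mean of single cells. Among cells with no Mki67 or Top2a UMI it was 0.44 for activation, 0.25 for day 5 against day 3, -0.16 for cytokine against none on day 3, -0.071 for IL-2v against IL-2 and -0.23 for IL-2v dose, and the constitutive subunits were at 0.25 for IL-2v against IL-15. Without the expression filter the constitutive subunits were at 0.088 for day 5 against day 3, 0.18 for IL-2v against IL-2 and 0.093 for IL-2 dose.

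Single days decided several medians. Without day 3 the balance was -0.35 for IL-2v against IL-2, -0.090 for IL-15 against IL-2 (0.13 with all days), -0.21 for IL-2v against IL-15, -0.57 for IL-2 dose, 0.12 for IL-2v dose (-0.30 with all days) and 0.11 for IL-15 dose. Without day 5 it was 0.089 for IL-2v against IL-2 (-0.19 with all days), 0.23 for IL-15 against IL-2, -0.70 for IL-2 dose, 0.12 for IL-2v dose and -0.0038 for IL-15 dose (0.06 with all days). Without day 10 it was -0.51 for IL-2 dose. The constitutive subunits relative to all genes were at 0.060 for IL-2 dose (0.22 with all days) and -0.039 for IL-2v dose (0.076 with all days) without day 3; at -0.13 for IL-15 against IL-2 (-0.0047 with all days), 0.24 for IL-2v against IL-15 (0.14 with all days) and -0.025 for IL-2v dose without day 5; and at 0.10 for IL-15 against IL-2, 0.057 for IL-2v against IL-15, 0.017 for IL-2 dose and -0.12 for IL-15 dose (-0.013 with all days) without day 10. Without the 50 IU/mL IL-2 library of day 5 the balance was -0.073 for IL-2v against IL-2, 0.073 for IL-15 against IL-2 and -0.70 for IL-2 dose, and the constitutive subunits were at -0.11 for IL-15 against IL-2.

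Both counts of 1 member at least 2-fold apart depended on the processing. For IL-2 dose (Psmb10) the count was 0 without cells of over 2 times the median UMIs, with the mean of single cells, among cells with no Mki67 or Top2a UMI, with TMM scaling, with a pseudocount of 10 CPM, without day 5 and without the 50 IU/mL IL-2 library of day 5. For activation (Psmb9) it was 0 with the mean of single cells, among cells with no Mki67 or Top2a UMI and with totals counted without mitochondrial and ribosomal protein genes, and 2 without the expression filter. For IL-2v against IL-2 it was 1 without day 3.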
